A study of Mus musculus with 6 samples.

Results

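Single-cell libraries of sorted cells from mouse pups held 93 barcodes with the RNA of astrocyte marker genes among 15259 kept barcodes, a share of 0.609% (95% exact Clopper-Pearson interval 0.492 to 0.746). A barcode is the tag that marks 1 droplet, which usually holds 1 cell. A barcode was counted here when it carried a UMI (unique molecular identifier, 1 captured RNA molecule) of at least 3 of Aqp4, Slc1a3, Slc1a2, Aldoc, Gja1 and Ntsr2, and when it passed a filter of 500 genes or more and 10% mitochondrial UMIs or less. Of the 93, 25 carried UMIs of fewer than 3 of the endothelial genes Pecam1, Cldn5, Cdh5, Flt1, Esam and Egfl7, and are called astrocyte-only barcodes below. The other 68 carried 3 or more of them, and are called dual-marker barcodes. The 14097 kept barcodes with at least 3 endothelial markers and fewer than 3 astrocyte markers served as the endothelial reference.

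The study followed cerebral cavernous malformation, a disease of brain vessels, in mice that lack Ccm3 (gene symbol Pdcd10) in endothelial cells. Each of the 6 groups has 1 library. The KO groups carried Mfsd2a-CreERT2 with Pdcd10fl/fl, and the WT groups carried Mfsd2a-CreERT2 without the floxed allele. The driver is the promoter of Mfsd2a, a lipid transporter of the brain endothelial barrier, so that the recombination was not aimed at astrocytes. All mice received tamoxifen, which switches the recombinase on. It was given at P1, postnatal day 1, for the WT and KO groups collected at P6 and at P10, and on a day not given in the sources used here for the 2 KO groups collected at P9. Those P9 groups received vehicle or rapamycin, an inhibitor of mTORC1. The labels name the tissue as retina, while the title and the design text of the series name brain. The cells were sorted by flow cytometry with a gate that is not given in the sources used here. Nothing in the labels says how many animals a library pools.

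Astrocytes are the glial cells whose processes end on brain capillaries. They take up glutamate through Slc1a2 and Slc1a3, move water through Aqp4 channels that line these endfeet, and supply lipids and signals to neurons and vessels. Many of them arise in the weeks around birth from radial glia and by local division. Whether the RNA of a barcode came from 1 whole cell was not tested.

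The libraries held between 10807651 and 40197132 UMIs. Between the 2 P9 libraries 420 barcodes were shared, and between any other pair at most 13; none of the 93 barcodes was among those shared. The targeted gene Pdcd10 (chr3:75516490-75556856, minus strand; this and the positions below are GRCm38 with GENCODE gene models) was sparse in astrocyte-only barcodes, with 2 UMIs in WT P6, 0 in KO P6, 2 in WT P10, 5 in KO P10, 0 in the P9 vehicle and 2 in the P9 rapamycin library. In the endothelial reference it stood at 103 CPM (counts per 1000000 UMIs) in WT P6 against 58.2 in KO P6, and at 103 in WT P10 against 58.3 in KO P10. It stood at 45.0 CPM with vehicle and 81.0 CPM with rapamycin. The deleted exons are not named in the labels and the reads come from the 3′ end of transcripts, so these counts do not check the deletion. Mfsd2a, whose promoter drives the recombinase, gave 13 UMIs in 5 of the 25 astrocyte-only barcodes, or 103 CPM, against 359 CPM in the endothelial reference.

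Astrocyte-only barcodes made up 0.270% of kept barcodes in WT P6 (4 of 1481, interval 0.0736 to 0.690), 0.315% in KO P6 (3 of 952, 0.0650 to 0.918), 0.0554% in WT P10 (2 of 3608, 0.00671 to 0.20) and 0.419% in KO P10 (13 of 3105, 0.223 to 0.715). In the P9 libraries the share was 0.0231% with vehicle (1 of 4337, 0.000584 to 0.128) and 0.113% with rapamycin (2 of 1776, 0.0136 to 0.406). KO P10 alone gave 13 of the 25. All intervals cover counting error only, and with 1 library per group no difference between groups could be tested. The KO P10 share was 7.55 times the WT P10 share (interval 1.71 to 68.9), and the intervals of the 2 shares did not overlap. This ratio moved with the filter: 7 further astrocyte-only barcodes in KO P10 and 6 in WT P10 had been left out for few genes or high mitochondrial RNA, and with them it was 2.75 (1.16 to 7.23). After thinning to 1000 UMIs it was 4.09 (0.780 to 40.4) and with a minimum of 1000 genes 4.53 (0.903 to 43.8), both with intervals across 1. Both WT P10 barcodes carried 2 endothelial markers, so with 2 markers as the limit the counts became 12 in KO P10 and 0 in WT P10. Some barcodes also held at least 3 markers of another cell type, such as neurons or pericytes. With these left out, a setting chosen after seeing the data, 11 remained in KO P10 and 1 in WT P10. The ratio was then 12.8 (1.86 to 550) and rested on that 1 WT P10 barcode. At P6 the ratio of KO to WT was 1.17 (0.171 to 6.90), and at P9 that of rapamycin to vehicle was 4.88 (0.254 to 288), both too wide to read a direction.

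Dual-marker barcodes were spread otherwise over the libraries. They made up 0.473% in WT P6 (7 barcodes, 0.190 to 0.971), 0.210% in KO P6 (2 barcodes, 0.0255 to 0.757), 0.499% in WT P10 (18 barcodes, 0.296 to 0.787) and 0.386% in KO P10 (12 barcodes, 0.20 to 0.674). At P9 the share was 0.277% with vehicle (12 barcodes, 0.143 to 0.483) and 0.957% with rapamycin (17 barcodes, 0.559 to 1.53). The P9 ratio of rapamycin to vehicle was 3.46 (1.56 to 7.94). It was 2.29 (0.901 to 5.83) with a mitochondrial limit of 5%, 3.66 (0.869 to 17.6) with 4 of 6 astrocyte markers and 7.33 (1.31 to 74.2) where a marker counted from 2 UMIs. At the other ages, the ratio of KO to WT was 0.444 (0.0451 to 2.33) at P6 and 0.775 (0.340 to 1.70) at P10. Depth moved with the P9 difference: the median endothelial barcode held 11526 UMIs with rapamycin and 7978 with vehicle. After each barcode was thinned at random to 1000 UMIs, 0 dual-marker barcodes were left in both P9 libraries, 0 of 1643 with rapamycin (exact interval up to 0.224%) and 0 of 3955 with vehicle (up to 0.0932%). The part of depth in the P9 difference was not tested beyond this. Over the 6 libraries thinning left 13 astrocyte-only and 3 dual-marker barcodes, the astrocyte-only ones as 1 in each P6 library, 2 in WT P10, 7 in KO P10, 0 with vehicle and 2 with rapamycin.

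**Figure D1:**
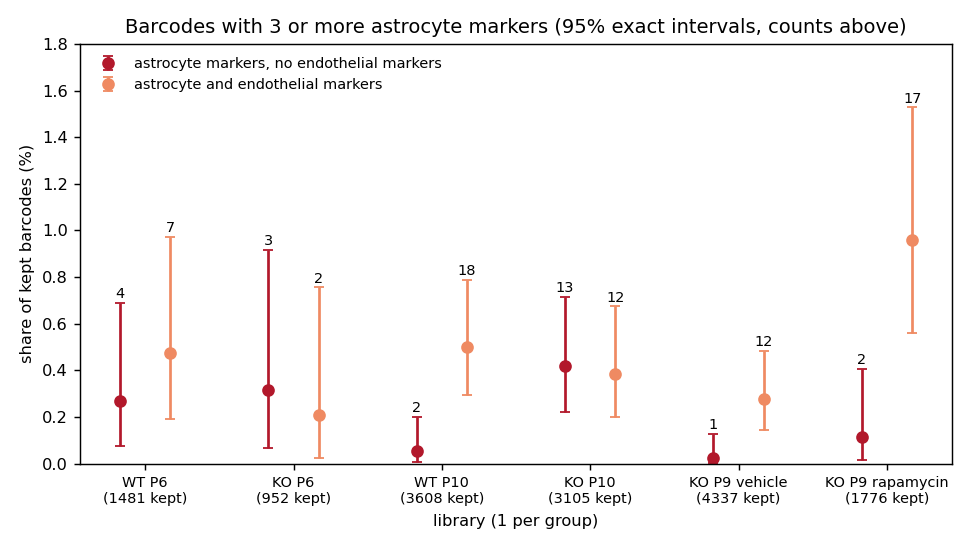
Share of kept barcodes (vertical axis, percent) with at least 3 astrocyte markers in each library, without endothelial markers in red and with them in orange. Bars are 95% exact intervals and the printed numbers count barcodes; the KO P10 share without endothelial markers, 0.419%, has an interval that lies above that of WT P10, and the rapamycin share with endothelial markers, 0.957%, above that of vehicle.

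The 6 markers of the rule are described first, with no test, because they chose the barcodes. Slc1a3, a glutamate transporter (chr15:8634124-8710764, minus strand), was the most widely detected in astrocyte-only barcodes, in 24 of 25, with 244 UMIs. Its partner Slc1a2 (chr2:102658659-102790784, plus strand) was found in 19 of 25 with 81 UMIs. Aldoc, the aldolase isoform of brain (chr11:78322968-78327781, plus strand), was found in 18 with 170 UMIs. The water channel Aqp4 and the gap junction protein Gja1 (chr10:56377330-56402513, plus strand) were each found in 16, with 75 and 83 UMIs. The neurotensin receptor Ntsr2 (chr12:16653382-16660227, plus strand) was found in 9 with 16 UMIs.

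Astrocyte-only barcodes held a median of 12 UMIs of these 6 genes together (range 3 to 103), and dual-marker barcodes a median of 6 (3 to 87). In astrocyte-only barcodes 11 had exactly 3 markers, 6 had 4, 3 had 5 and 5 had all 6. In dual-marker barcodes 40 had exactly 3 markers, 19 had 4, 3 had 5 and 6 had all 6. Many dual-marker calls rested on single molecules, since 32 of 68 had at most 1 marker with 2 or more UMIs, against 6 of 25 astrocyte-only barcodes. Gja1 was shared with endothelium, since 24.7% (vehicle) to 54.3% (KO P6) of endothelial reference barcodes held a UMI of it. Each of the other 5 markers was found in at most 4.60% of them, the highest being Slc1a3 in the rapamycin library. Of the 25 astrocyte-only barcodes 22 had 3 markers without Gja1, and of the 68 dual-marker barcodes 42.

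Astrocyte-only barcodes carried a broad set of astrocyte genes that the rule did not use. Of 77 such genes, listed by role with earlier results of these data known, 69 stood at least 2-fold above the endothelial reference with Poisson intervals that did not overlap, 1 stood below it, and 7 did neither. Among all 22732 genes with a UMI the same rule marked 10.3% as higher and 3.99% as lower, and the endothelial markers that define the reference were used in the choice. The median log2 ratio to the reference was 5.59 over the 77 genes, 3 of them without a UMI in these barcodes, and -0.80 over all genes, of which 10379 had one. These levels are sums over the 6 libraries and are compared for 1 gene at a time. The shares over all genes, here and below, include genes without a UMI in the class, which cannot pass upward. A list of mostly detected genes is thus set against a low share. Lists of other cell types also held genes past the rule upward in the same barcodes: 5 of 6 oligodendrocyte precursor genes (median log2 ratio 8.08), 6 of 9 neuron genes (5.22) and 7 of 9 pericyte genes (1.44), with 0 downward in each. Most UMIs of these lists lay in the 6 barcodes with at least 3 markers of another type, which held 35 of 53 precursor, 55 of 58 neuron and 187 of 196 pericyte UMIs.

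Apoe, which carries cholesterol to neurons, was the most abundant of them. It stood at 15587 CPM in astrocyte-only, 2739 CPM in dual-marker and 344 CPM in endothelial reference barcodes. Its UMIs per astrocyte-only library were 66 in WT P6, 177 in KO P6, 175 in WT P10, 1423 in KO P10, 10 with vehicle and 111 with rapamycin. It was found in 23 of the 25 barcodes, and those of KO P10 held between 5 and 402 UMIs each. Both barcodes without Apoe were WT P6 barcodes that carried neuron markers.

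Fabp7, a fatty acid carrier of radial glia and young astrocytes, reached 8453 CPM in astrocyte-only barcodes, with 1064 UMIs in 23 of 25. In dual-marker barcodes it stood at 536 CPM and in the endothelial reference at 10.9 CPM. Dbi, a binding protein for acyl-CoA, stood at 5164, 1092 and 324 CPM in the 3 classes in the same order. The chaperone Clu stood at 826, 164 and 6.79 CPM. In Apoe, Fabp7, Dbi and Clu alike, dual-marker barcodes lay between the other 2 classes. Of the 14 genes for lipid, glycogen and energy metabolism 11 passed the 2-fold rule upward in astrocyte-only barcodes, and Abca1, a cholesterol exporter, was level at 103, 95.2 and 108 CPM.

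Genes of glutamate, GABA and ion handling all passed the rule upward, 12 of 12. Glul, which turns glutamate into glutamine, stood at 977 CPM in astrocyte-only against 373 CPM in endothelial reference barcodes. The GABA transporter Slc6a11 was rarer, with 26 UMIs in 9 barcodes, or 207 CPM against 0.129 CPM. The potassium channel Kcnj10 gave 5 UMIs in 4 of 25 barcodes.

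Endfoot and junction genes passed upward in 9 of 10 cases. Mlc1, a membrane protein of endfeet, stood at 493 CPM with 62 UMIs in 14 barcodes, against 0.331 CPM in the reference. Its adhesion partner Hepacam stood at 222 CPM with 28 UMIs in 13 barcodes, against 0.936 CPM. The connexin Gjb6 gave 3 UMIs in 2 barcodes. Of the 15 matrix and synapse-organising genes 12 passed upward, among them the proteoglycan Bcan at 794 against 0.403 CPM and the receptor phosphatase Ptprz1 at 1192 against 0.347 CPM. Sparc, a matrix protein made by brain endothelium, was the 1 gene of the 77 that passed downward, at 786 against 4880 CPM.

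Among other astrocyte genes 25 of 26 passed upward. Gfap, the intermediate filament of many mature and reactive astrocytes, was sparse, with 24 UMIs in 7 of 25 barcodes, or 191 CPM against 1.46 CPM. Of these, 11 came from 1 WT P6 barcode and 11 from 5 KO P10 barcodes. S100b gave 16 UMIs in 9 barcodes. Aldh1l1, a folate enzyme used as a general astrocyte marker, gave 25 UMIs in 12 barcodes, and Cst3, a secreted protease inhibitor, was found in all 25 at 9207 CPM against 990 CPM.

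**Figure D2:**
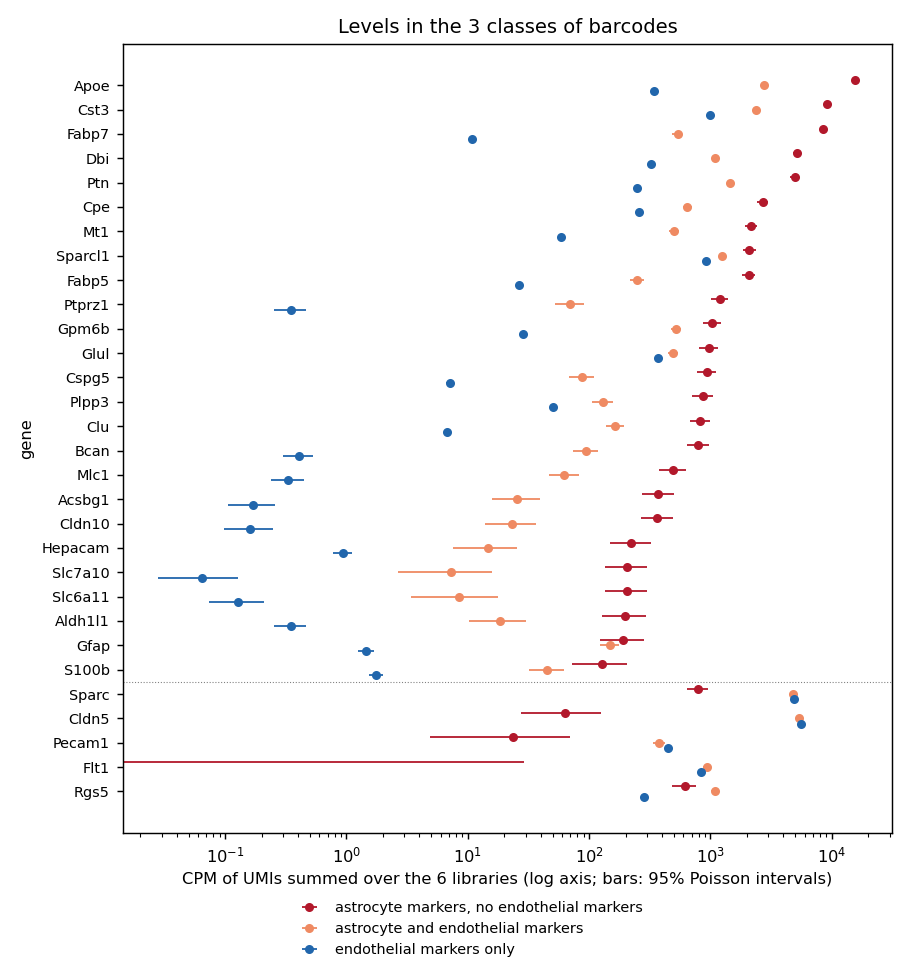
Level of 30 genes (rows) as CPM of UMIs summed over 6 libraries (horizontal axis, log scale) in astrocyte-only, dual-marker and endothelial reference barcodes, with 95% Poisson intervals. Astrocyte genes above the dotted line run from low in the reference through dual-marker to astrocyte-only barcodes, and below it Sparc, Cldn5 and Pecam1 run the other way; Flt1 had 0 UMIs in astrocyte-only barcodes, so only its upper limit shows.

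The genes that stood highest against the endothelial reference of the same library, by the median log2 ratio over the 6 libraries among genes with at least 50 UMIs in astrocyte-only barcodes, were led by Ptprz1 (10.32), Aqp4 (9.99), Gpr37l1 (9.72), Pantr1 (9.46) and Fabp7 (9.31). The minimum admits genes through the class where they are high, and Aqp4, Aldoc, Slc1a2 and Slc1a3 among the 20 highest chose the barcodes, so the order is a description only. Gpr37l1 is a glial receptor, here with 57 UMIs in 13 barcodes. Pantr1 is a long noncoding RNA, found in 20 of 25 barcodes with 62 UMIs. Of the 20 highest genes, 8 were in no list made for this work: Pantr1, Mmd2, Pla2g7, Bex2, Gpm6a, Rtn1, Ndrg2 and Fez1. Rtn1 had 25 and 16 of its 72 UMIs in WT P6 and KO P6, and Bex2 16 and 15 of its 58. Both of these libraries include barcodes with neuron markers. Gpm6a, a membrane glycoprotein shared with neurons, was found in 23 of 25 barcodes, and Ndrg2, a gene long used for astrocytes, in 19.

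The number of the 77 other astrocyte genes per barcode was compared at equal depth, because dual-marker barcodes were deeper (median 10948 UMIs, range 4242 to 31635) than astrocyte-only barcodes (5515, 728 to 14497) and than the endothelial reference (6977). Before thinning, the median was 30 genes in astrocyte-only (15 to 62), 25 in dual-marker (13 to 56) and 12 in reference barcodes (0 to 40). After thinning to 1000 UMIs it was 21 in 22 astrocyte-only barcodes (3 to 39), 8 in 68 dual-marker barcodes (2 to 25) and 5 in 13963 reference barcodes (0 to 15). Of the 22 astrocyte-only barcodes 15 had more of these genes than any reference barcode, as did 9 of the 68 dual-marker barcodes. Of these 9, 5 came from WT P10, 3 from KO P10 and 1 from WT P6. The other dual-marker barcodes lay within the range of the reference.

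**Figure D3:**
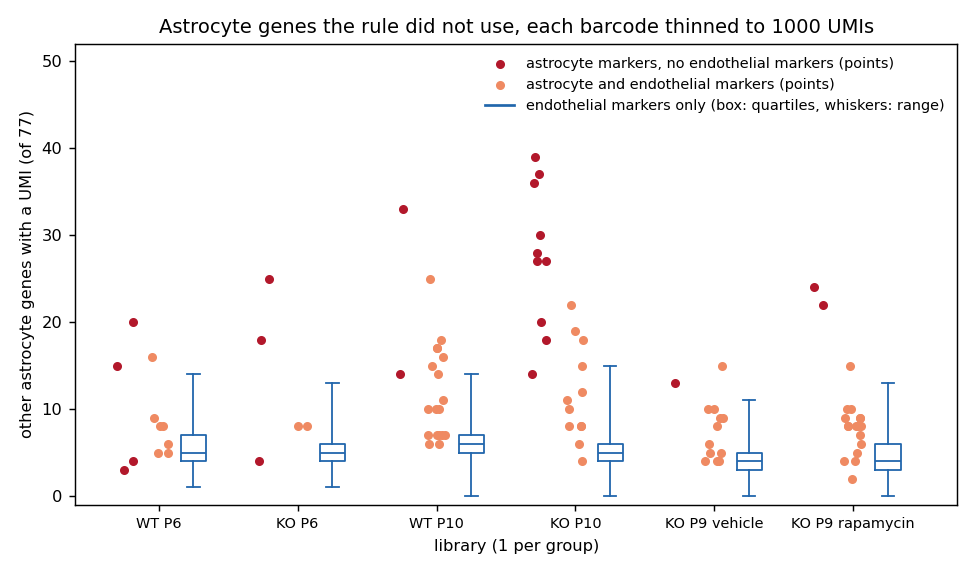
Number of the 77 astrocyte genes not used by the rule that had a UMI (vertical axis) in each library after thinning to 1000 UMIs. Points are single astrocyte-only (red) and dual-marker (orange) barcodes, and boxes give the quartiles and full range of reference barcodes; most astrocyte-only points lie above the highest reference barcode at 15, and most dual-marker points below it.

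Barcodes at the threshold differed from the rest in these genes too. Astrocyte-only barcodes with exactly 3 markers had a median of 24 of the 77 genes, and the 8 with 5 or 6 markers had 50.5. Just outside the rule, 25 barcodes with 2 astrocyte markers and fewer than 3 endothelial markers had a median of 19. With endothelial markers the medians were 38 for the 9 barcodes with 5 or 6 astrocyte markers, 22 for the 40 with 3 and 17 for the 261 with 2. These values were not thinned and are given as a description.

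The astrocyte label held for most but not all astrocyte-only barcodes. In 6 of 25 at least 3 markers of another cell type were found. The other 19 had fewer than 3 markers of each of the 6 types checked (pericyte, microglia, neuron, oligodendrocyte precursor, red cell, choroid plexus). These 19 still held 18 precursor UMIs in 9 barcodes, 9 pericyte UMIs in 5 and 3 neuron UMIs in 3. At least 3 neuron markers stood in 4 barcodes, 2 of WT P6, 1 of KO P6 and 1 of WT P10. These 4 had a median of 16 of the 77 astrocyte genes (15 to 28), against 32 (21 to 62) in the 19, and after thinning 4 (3 to 14) against 26 (13 to 39, 16 barcodes). Beyond the rule itself, the data go against calling the 3 neuron-marker barcodes of P6 astrocytes: after thinning they had 3, 4 and 4 of the 77 genes, within the range of the endothelial reference.

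At least 3 of 6 oligodendrocyte precursor markers, a list with Pdgfra, Olig1 and Sox10, stood in 2 barcodes, 1 of WT P10 that also had neuron markers and 1 of KO P10. The KO P10 barcode held 23 precursor UMIs against 8 of the astrocyte rule genes, and 5 of Apoe. The WT P10 barcode held 10 against 5, and 3 of Apoe. After thinning they had 18 and 14 of the other astrocyte genes, against at most 15 in the reference. The astrocyte label is thus not secure for these 2, and whether they were precursors was not tested. A single KO P10 barcode had 8 of 9 pericyte markers beside all 6 astrocyte markers. Markers of microglia and macrophages were absent from the 25, with 0 UMIs of 11 genes, and so were those of choroid plexus, with 0 UMIs of 6 genes. For the retina named by the labels, the Müller glia gene Rax and the photoreceptor gene Rcvrn were at 0 in the 25 barcodes. Of the 5 photoreceptor genes listed 1 had UMIs, Sag with 2 in a single barcode. The Müller glia list also holds Rlbp1 (16 UMIs) and Dkk3 (15 UMIs), which are not limited to retina.

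Dual-marker barcodes carried endothelial genes at levels near those of the reference, which was chosen by the same 6 rule genes. Of the 68 barcodes 53 carried all 6 rule genes, as a description of the choice. Of 8 endothelial genes outside the rule 0 passed the 2-fold rule in either direction, and 66 of 68 barcodes had UMIs of at least 3 of them. Cldn5, the main claudin of the barrier, stood at 5332 CPM against 5537 CPM in the reference, and at 63.6 CPM in astrocyte-only barcodes. Of the 77 other astrocyte genes 48 passed the 2-fold rule upward and 0 downward, against 3.81% and 0.704% of all genes, with a median log2 ratio of 2.45.

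Pericyte markers stood above the reference in dual-marker barcodes. At least 3 of 9 pericyte markers were found in 26 of 68 dual-marker barcodes, 20 of which also carried all 6 endothelial markers. The whole pericyte list stood at 2668 CPM in dual-marker barcodes against 631 CPM in the reference, and all 9 genes passed the 2-fold rule upward. By library the list ranged from 1360 CPM (rapamycin) to 6430 CPM (KO P6, 2 barcodes) in dual-marker barcodes and from 257 to 1141 CPM in the reference. Rgs5, a regulator of G protein signalling and pericyte marker, gave 893 UMIs in 38 of 68 barcodes. With barcodes of other cell types left out, 41 dual-marker barcodes remained, and their median number of other astrocyte genes after thinning was 8, the same as in the 27 left out. Red cell genes stood at 57990 CPM in dual-marker barcodes of WT P10, where 3 barcodes carried all 5 haemoglobin and haem genes, against 15209 CPM in the WT P10 reference. In astrocyte-only barcodes 7 of 9 pericyte genes passed upward too, at 1557 CPM for the list, and 182 of the 196 UMIs lay in 1 KO P10 barcode. The part of these other cells in the astrocyte signal was not tested.

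**Figure D4:**
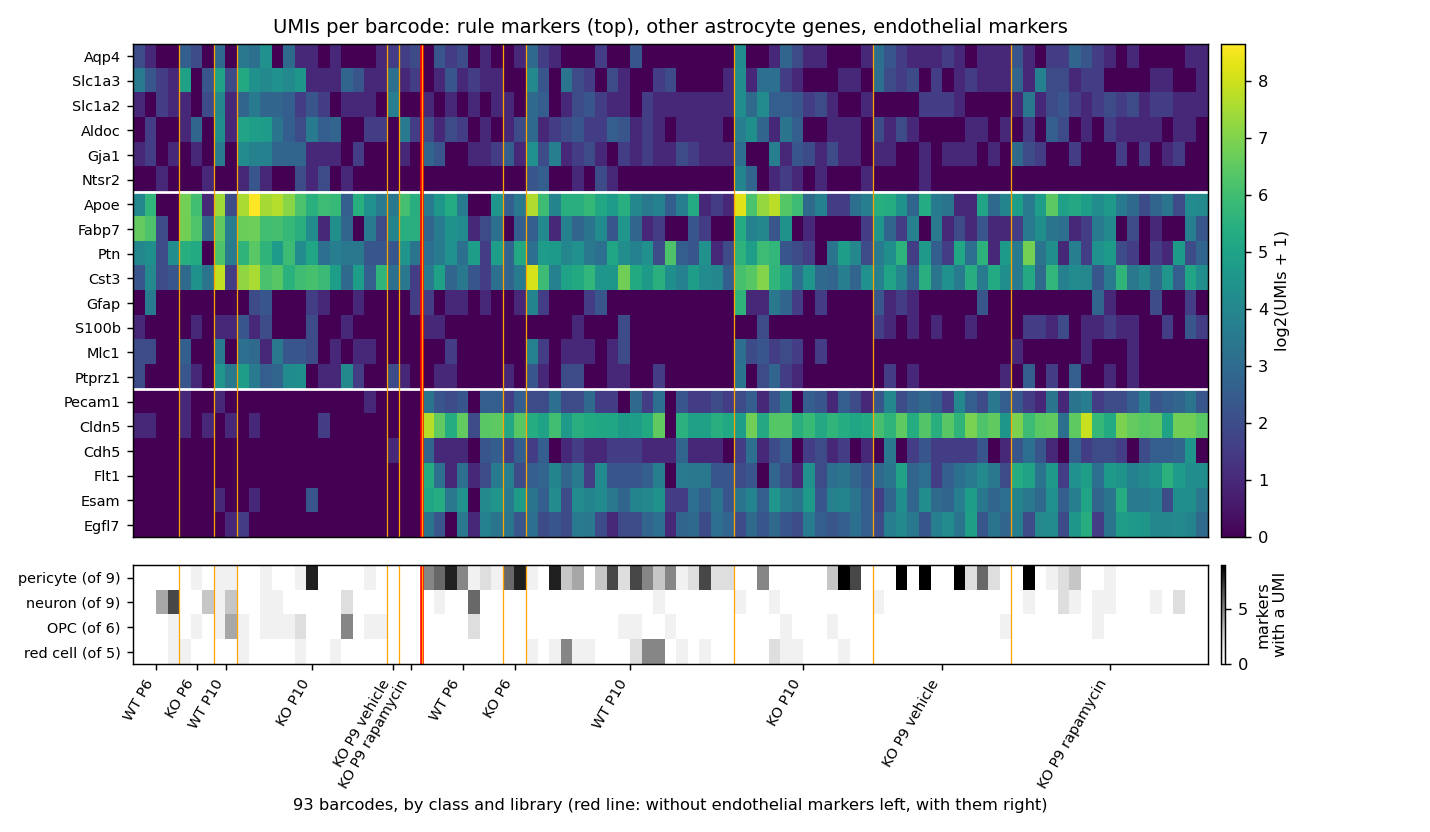
UMIs of each gene (rows, log2 of UMIs plus 1) in the 93 barcodes (columns), grouped by class at the red line and by library at the orange lines. Endothelial genes in the bottom rows are nearly empty in the 25 astrocyte-only barcodes and filled in the 68 dual-marker barcodes. The lower panel counts markers of 4 other cell types (OPC, oligodendrocyte precursor). Pericyte UMIs are found in 40 dual-marker barcodes, of which 26 have at least 3 pericyte markers.

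Cell division genes were held by few astrocyte-only barcodes. The 12 mitotic genes together stood at 4367 CPM in WT P6 (133 UMIs), 2116 CPM in KO P6 (38 UMIs), 204 CPM in WT P10 (3 UMIs) and 74.3 CPM in KO P10 (4 UMIs), with 1 UMI at P9 with vehicle and 0 with rapamycin. The reference ranged from 172 CPM in WT P10 to 1059 CPM with vehicle. The 3 P6 barcodes with neuron markers held 26, 105 and 38 of the UMIs. Each of the 19 barcodes with fewer than 3 markers of any other type held 0 or 1 mitotic UMI, so the P6 sums rested on the neuron-marker barcodes. Of 13 radial glia and progenitor genes 7 passed upward and 3 downward, against 10.3% and 3.99% of all genes. The downward ones were Nes at 71.5 against 273 CPM, Hes1 at 143 against 836 CPM and Notch1 at 23.8 against 82.2 CPM. Among the upward ones Sox2, a neural stem cell factor, gave 38 UMIs in 12 of 25 barcodes, or 302 CPM against 0.153 CPM in the reference, and Hes5, a Notch target of radial glia, gave 25 UMIs in 6.

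Regional genes differed between the libraries. Astrocytes keep transcription factors of the brain region where they arose, such as Emx2 in the forebrain and Zic1, Pax3 and En1 in midbrain, hindbrain and cerebellum. A UMI of at least 1 of 5 forebrain genes was found in 8 of the 13 astrocyte-only barcodes of KO P10 and in 0 of the 12 from the other libraries. The 5 genes summed to 14 UMIs in KO P10, or 260 CPM (interval 142 to 436). A count of 0 UMIs gave an upper interval limit of 121 CPM in WT P6, below that interval, and of 205 CPM in KO P6 and 250 CPM in WT P10, inside it. Of the 30459 UMIs behind the WT P6 limit, 6869 and 14497 lay in the 2 neuron-marker barcodes. Without those barcodes the limit would be higher, so it does not set WT P6 astrocytes apart from KO P10. Forebrain genes were not limited to KO at P10, since dual-marker barcodes held 10 UMIs of them in WT P10 and 7 in KO P10. A UMI of at least 1 of 11 genes of the midbrain, hindbrain and cerebellum was found in 18 of 25 barcodes, among them 4 of 4 in WT P6, 3 of 3 in KO P6, 1 of 2 in WT P10, 7 of 13 in KO P10 and all 3 at P9. As a sum these 11 genes stood at 1543 CPM in WT P6, 1893 CPM in KO P6, 67.9 CPM in WT P10, 278 CPM in KO P10, 2491 CPM with vehicle and 2870 CPM with rapamycin, against 49.8 to 79.0 CPM in the reference. Zic1 gave 36 UMIs in 9 barcodes, of which 23 lay in 4 of the 6 barcodes with at least 3 markers of another type. The neuron-marker barcodes held 14 and 3 of them in WT P6 and 4 in KO P6. Zic1 stood at 467 CPM in the 6 barcodes and at 170 CPM in the other 19. Gdf10, a growth factor of Bergmann glia in the cerebellum, gave 19 UMIs in 3 barcodes, 5 in WT P6, 12 in KO P6 and 2 with rapamycin. The tissue part that each library was made from is not given in the sources used here, so differences between ages or genotypes in these barcodes cannot be told apart from differences in region.

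Sterol and fatty acid synthesis genes stood high in astrocyte-only barcodes, with 18 of 19 past the 2-fold rule upward and 0 downward. The list summed to 7476 CPM (interval 7005 to 7969) in astrocyte-only, 925 CPM (861 to 994) in dual-marker and 490 CPM (486 to 494) in reference barcodes. Msmo1, a demethylating enzyme of the cholesterol pathway, stood at 1231 against 31.3 CPM, and Hmgcs1, an early synthase of the same pathway, at 1120 against 48.7 CPM. By library the list gave 2462 CPM in WT P6, 2004 CPM in KO P6, 20432 CPM in WT P10, 9339 CPM in KO P10, 1868 CPM with vehicle and 5740 CPM with rapamycin. The WT P10 value came from 2 barcodes, 1 of which held 51 of the 56 Msmo1 UMIs. Both P10 libraries stood above both P6 libraries, with intervals that did not overlap. Neuron-marker barcodes held 6869 and 14497 of the 30459 UMIs in WT P6 and 8902 of the 17961 in KO P6. Msmo1 stood at 447 CPM in the 6 barcodes with at least 3 markers of another type and at 1736 CPM in the other 19. Hmgcs1 stood at 325 and 1631 CPM. Both groups pool the ages. All 6 Msmo1 UMIs of WT P6 lay in 1 neuron-marker barcode. Among the 19, the P6 barcodes of 4951, 4142, 7515 and 1544 UMIs held 0, 0, 1 and 0 Msmo1 UMIs. They held 3, 3, 2 and 2 UMIs of Hmgcs1. KO P10 held 89 Msmo1 UMIs in 7 of 13 barcodes and 75 Hmgcs1 UMIs in 12. Msmo1 was thus sparse in the P6 barcodes without neuron markers too. The whole list was not split in this way, and the parts of age and cell type were not tested. Of 18 genes of the amino acid arm of the stress response, 16 of them with a UMI, 7 passed upward and 1 downward, against 10.3% and 3.99% of all genes. Phgdh, the first enzyme of serine synthesis, was found in 25 of 25 barcodes at 961 against 14.9 CPM.

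Of 14 genes for signals from astrocytes to vessels 11 had a UMI in astrocyte-only barcodes, 8 passed the 2-fold rule upward and 1 downward, with a median log2 ratio of 4.26. Of these 8, 6 rested on 11 UMIs or fewer. Over all genes the rule marked 10.3% upward and 3.99% downward. Ptn, a secreted growth factor, stood highest, at 4933 CPM with 621 UMIs in 24 of 25 barcodes, against 1443 CPM in dual-marker and 246 CPM in reference barcodes. Mdk, a growth factor related to it, stood at 437 against 46.8 CPM with 55 UMIs in 14 barcodes. Adm, a vasodilator peptide, was the downward one, with 0 UMIs against 135 CPM. Agt, the precursor of angiotensin, gave 11 UMIs in 5 barcodes, and Angpt1, a ligand that steadies vessels, gave 8 UMIs in 3. Vegfa gave 2 UMIs in 1 barcode. Wnt7a and Shh were at 0 UMIs in the 25, and Wnt7b gave 4 UMIs in 3. With 125877 UMIs in all astrocyte-only barcodes, a count of 0 allows up to 23.8 CPM.

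Genes of reactive astrocytes were sparse in the 25 barcodes. Of 13 genes induced in reactive astrocytes of several kinds 3 passed upward and 3 downward, with Gfap, Serpina3n (1 UMI) and S1pr3 (6 UMIs) the upward ones. Lcn2, Cxcl10 and C3 were at 0 UMIs. Of 11 genes tied to inflammation 1 passed upward and 4 downward, among them the MHC gene H2-D1, at 95.3 CPM against 800 CPM in the reference. Of 12 genes tied to injury 2 passed upward and 1 downward. Over all genes the same rule marked 10.3% upward and 3.99% downward. The few upward calls in these lists are given as a description only. In dual-marker barcodes Gfap gave 122 UMIs in 25 of 68, or 149 CPM, and 70 of these came from 7 KO P10 barcodes, 48 of them from a single one.

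The interferon-stimulated genes, whose endothelial level was higher in KO than in WT, stood low in astrocyte-only barcodes. Their sum was 263 CPM in WT P6 (interval 113 to 518), 612 CPM in KO P6 (306 to 1096), 475 CPM in WT P10 (191 to 979), 1040 CPM in KO P10 (785 to 1350), 156 CPM with vehicle (1 UMI) and 0 UMIs with rapamycin. In the reference of the same libraries the sum was 1713, 8288, 1512, 3489, 2617 and 1496 CPM. The KO and WT intervals overlapped at both ages in astrocyte-only barcodes. Of the 56 UMIs in KO P10, 19 lay in the barcode with pericyte markers and 18 in 2 barcodes of 868 and 1165 UMIs, which held 9 of the 10 Isg15 UMIs of the class. Rsad2, Ifit1 and Ifit3, which are induced strongly by interferon, were at 0 UMIs in the 25 barcodes.

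In dual-marker barcodes the interferon-stimulated genes stood nearer to the endothelial reference. Their sum was 1627 CPM in WT P6, 4797 CPM in KO P6, 1391 CPM in WT P10, 2966 CPM in KO P10, 2304 CPM with vehicle and 1536 CPM with rapamycin. In dual-marker and in reference barcodes KO P6 was highest and KO P10 next, but the dual-marker sum of KO P6 (2 barcodes, interval 3876 to 5870) lay below its reference of 8288 CPM. Of the 20 genes 0 passed the 2-fold rule upward in astrocyte-only or dual-marker barcodes, against 10.3% and 3.81% of all genes. Downward, 4 passed in astrocyte-only and 6 in dual-marker barcodes, against 3.99% and 0.704% of all genes. Phlda3, a p53 target that was higher in KO endothelium, gave 0 UMIs in the dual-marker barcodes of WT P6, KO P6 and WT P10, 8 in KO P10, 46 with vehicle and 17 with rapamycin. Of the 46 with vehicle 26 lay in 1 barcode, which leaves 20 without it. In the reference it stood at 4.66 CPM in WT P6 and 149 CPM in KO P6, at 5.44 CPM in WT P10 and 137 CPM in KO P10, and at P9 at 96.2 CPM with vehicle and 31.3 CPM with rapamycin. In the 2 dual-marker barcodes of KO P6 a count of 0 allows up to 153 CPM, so it does not set them apart from the KO P6 reference. Phlda3 gave 0 UMIs in all 25 astrocyte-only barcodes. The endothelial genes named here were known from earlier results of these data and add no independent support.

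**Figure D5:**
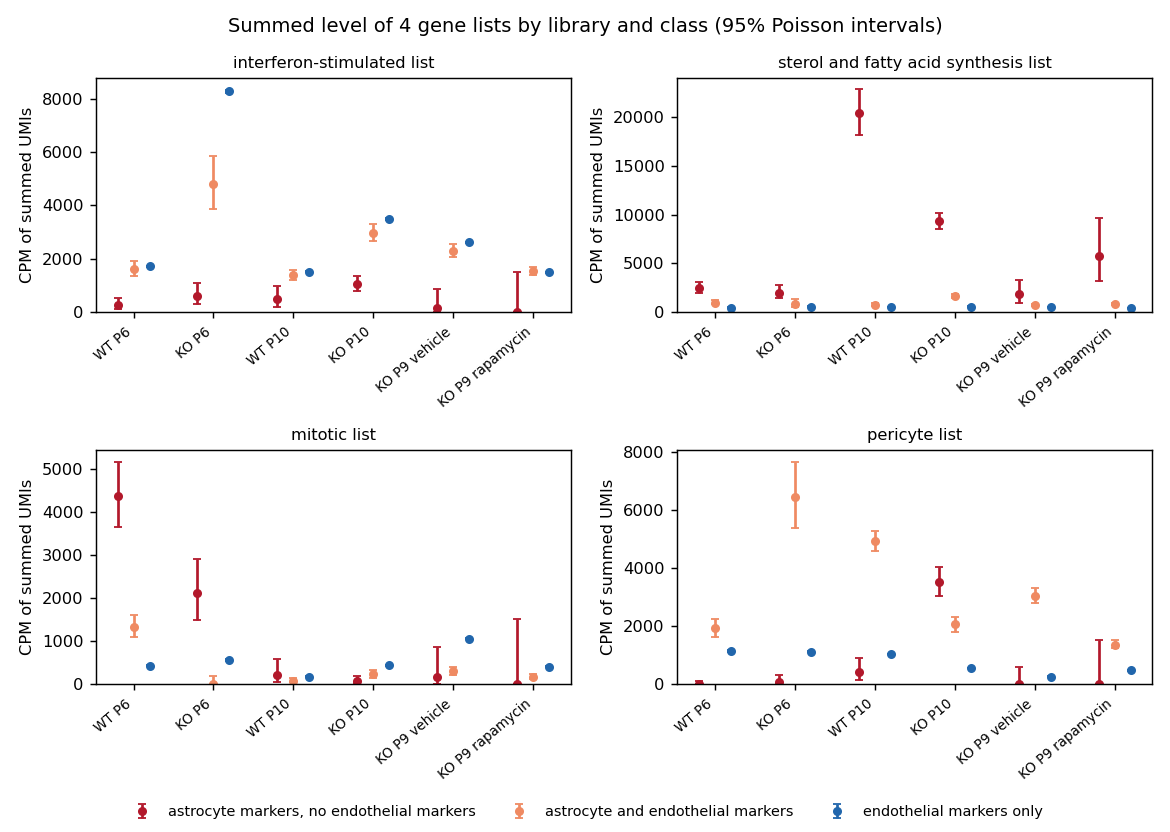
Summed level of 4 gene lists (vertical axes, CPM of summed UMIs with 95% Poisson intervals) in each library for astrocyte-only, dual-marker and endothelial reference barcodes. Interferon genes of dual-marker barcodes lie near the reference except in KO P6, sterol genes stand highest in astrocyte-only barcodes of WT P10 at 20432 CPM, mitotic genes in those of WT P6, and the pericyte value of KO P10 astrocyte-only barcodes rests mostly on 1 barcode.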

How the data were processed

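UMI counts per gene and barcode were deposited for 6 libraries, and the submitters' processing notes name Cell Ranger 6.0.1 and the mm10 build. The deposited counts are whole numbers for 32285 genes and were not normalized by the authors. Since the barcode list of the P9 libraries differs from that of the P6 and P10 libraries, P9 shares were set only beside each other. The members and gene lists were chosen with earlier results of these data known.

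UMIs were summed over the barcodes of a class and library (scanpy 1.11.5, numpy 2.4.6, scipy 1.17.1), and CPM is the sum per 1000000 UMIs. Sums have exact Poisson intervals, shares exact Clopper-Pearson intervals and ratios of shares exact conditional binomial intervals, all at 95%, for counting error only. A prior count of 2 entered the log2 ratios. With 1 library per group no test was made, and the labels do not say whether libraries come from separate animals. The named genes were to be ranked within pairs with at least 20 astrocyte-only barcodes in both libraries, and no pair had them. Instead, the 20 genes highest against endothelial barcodes and members of the lists are named; the 2-fold rule on lists was added after seeing the data. Scrublet's automatic threshold marked 7 of 18568 barcodes and was judged not to have worked; removing the highest scores instead, 470 barcodes, took none of the 93. Thinning drew 1000 UMIs per barcode at random and left out shallower barcodes. The script for ratios was tested on simulated data. Gene positions come from GENCODE annotation of GRCm38.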

Additional observations from a re-analysis of the deposited data

Results flagged for a closer look

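Barcodes outside the filter on genes and mitochondrial RNA also held astrocyte markers. At least 3 of the 6 markers were found in 6 such barcodes of WT P10, 7 of KO P10, 4 of the P9 vehicle and 4 of the P9 rapamycin library, each above the 3 that a count of 0 would allow. WT P6 and KO P6 had 1 each. Of these 23 barcodes among the 3309 left out, 21 had fewer than 3 endothelial markers, 11 had under 500 genes and 17 had over 10% mitochondrial UMIs. They held a median of 1092 UMIs, 15.9% of them mitochondrial, and a median of 27 of the 77 other astrocyte genes. The cause was not tested.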

How the results depend on the processing

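Counts of barcodes moved with the rule. The 68 dual-marker barcodes became 329 with 2 of 6 astrocyte markers, 28 with 4 of 6 and 3 after thinning to 1000 UMIs. The 25 astrocyte-only barcodes became 50, 14 and 13 under the same settings. Other settings were chosen after seeing the data. Of these, dual-marker counts were 42 without Gja1, 41 with barcodes of other cell types left out, 21 where a marker counted from 2 UMIs and 39 without the P9 libraries. Astrocyte-only counts were 11 where a marker counted from 2 UMIs and 46 with no gene minimum and no mitochondrial limit. In all, 66 of 78 values under other settings stayed within the limits set (1.5 times for counts, the 95% interval for ratios) and 12 moved. All 12 were counts. The dual-marker count moved under 7 settings and held under 5, and the astrocyte-only count moved under 5 and held under 7. Every ratio computed stayed within its limits, but these were as wide as 0.254 to 288, so this does not show that the ratios were stable. Ratios whose interval already spanned 1 gave no stable direction: the P10 dual-marker ratio of 0.775 was above 1 under 3 of 10 settings (up to 1.16), and the P6 astrocyte-only ratio of 1.17 was below 1 under 4 of 10 (down to 0.778). The P10 ratio of astrocyte-only shares ran from 2.75 to 12.8, with an interval across 1 under 2 of 10 settings, and where a count was 0 no ratio was computed. Alternatives on genes apart 2-fold within a pair and on log2 ratios within a pair were not run, because no pair had 20 astrocyte-only barcodes in both libraries. No paired analysis was possible because every group has 1 library. Depth limits most genes: in the 2 rapamycin astrocyte-only barcodes, with 2439 UMIs, a count of 0 allows 1230 CPM.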

Other observations

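Immediate early and heat shock genes, which respond to handling and dissociation, differed between libraries in astrocyte-only barcodes. They summed to 952 CPM in WT P6, 1949 CPM in KO P6, 20907 CPM in WT P10, 6127 CPM in KO P10, 3113 CPM with vehicle and 0 UMIs with rapamycin. The WT P10 sum came from 2 barcodes and the vehicle sum from 1, and in the 2 rapamycin barcodes a count of 0 allows 1230 CPM. Neuron-marker barcodes held 6869 and 14497 of the 30459 UMIs in WT P6 and 8902 of the 17961 in KO P6. In the endothelial reference they ranged from 4118 to 11219 CPM. The transcription factor Fos gave 310 UMIs in 15 of the 25 barcodes.

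Among oligodendrocyte genes, Cnp gave 34 UMIs in 12 of the 25 astrocyte-only barcodes and Mbp 2 UMIs in 2, while Mog, Mag and Cldn11 were at 0 UMIs.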
